A study of Homo sapiens with 4 samples.

Results

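The genes examined were DUSP4, DUSP5, DUSP6, DUSP7, SPRY2, SPRY4, SPRED1 and SPRED2, all of which encode inhibitors of ERK signaling, together with LOC728084, a non-coding gene name given to a cluster of peaks on the same chromosome as DUSP6. They were taken by name alone: every peak whose assigned gene in the deposited annotation was 1 of these 9 names was taken. This gave 19 of the 6263 peaks of APC ChIP replicate 1 and 36 of the 8393 peaks of APC ChIP replicate 2. Of the 9 names, 7 were present among the 6180 gene names of the lists, and SPRY2 and SPRY4 were absent from both. LOC728084 was included because of its cluster, so its number of peaks is given as a description.

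The peaks came from the human colon cancer cell line HCT-116, which the labels give as APC wild-type with the β-catenin allele CTNNB1ΔSer45, a form that resists degradation and keeps WNT signaling on. Untreated cells were crosslinked in 1% formaldehyde 24 h after seeding, and chromatin was immunoprecipitated with a polyclonal antibody against the C terminus of APC. The study had 2 APC ChIP libraries and 2 libraries of pre-cleared input chromatin, all from this 1 cell line and genotype. The replicates were biological and were prepared several months apart, so replicate and preparation date cannot be told apart. Input served as the sole control, with no ChIP from cells without APC among the samples, and it entered the lists when the authors called the peaks. The lists gave positions and widths but no read counts, so depth was unknown, and no p-value was computed with 2 lists.

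ERK is the last kinase of the RAS-RAF-MEK-ERK cascade, which carries signals from growth factor receptors such as the EGF receptor to the nucleus. Active ERK switches on genes whose products then dampen the cascade. Among these, the dual-specificity phosphatases (DUSPs) remove phosphate from ERK itself, DUSP4 and DUSP5 in the nucleus and DUSP6 and DUSP7 in the cytoplasm, whereas Sprouty (SPRY) and SPRED proteins act nearer the receptor, on RAS and RAF. In the intestinal epithelium this cascade works beside WNT signaling in driving cell proliferation. The tumor suppressor APC is known above all for marking β-catenin for destruction, and ChIP addressed where it associates with DNA, directly or through other proteins.

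Sequences of 9 regions are shown first because they hold the motif matches described below or, for the DUSP5 promoter, a motif of growth factor responses. Each is the plus strand of hg19, read 5′ to 3′ from the replicate 1 peak named. The motifs searched on both strands were AP-1 (TGACTCA or TGAGTCA, bound by FOS and JUN dimers) and TCF7L2 (CAAAG preceded by a pair of bases that are each A or T, bound by the DNA-binding partner of β-catenin). USF (CACGTG) and the CArG box, the site of serum response factor, were searched as well. In the regions of LOC728084, capitals mark AP-1 and TCF7L2 matches. These regions are chr12:89319905-89320125 (A), chr12:89328229-89328449 (B), chr12:89338087-89338307 (C) and chr12:89354287-89354507 (D), cut from the middle of wider peaks. The AP-1 match of region B follows a TCF7L2 match after 6 bases, and in region C the AP-1 match lies between TCF7L2 matches that read on the minus strand. The TCF7L2 matches of regions A and D lie in their peaks but outside the stretches shown.
LOC728084 region A: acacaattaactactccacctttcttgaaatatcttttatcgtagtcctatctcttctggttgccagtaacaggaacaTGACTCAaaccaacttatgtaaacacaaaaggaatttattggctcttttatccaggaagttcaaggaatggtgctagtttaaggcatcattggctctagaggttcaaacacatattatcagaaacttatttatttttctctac
LOC728084 region B: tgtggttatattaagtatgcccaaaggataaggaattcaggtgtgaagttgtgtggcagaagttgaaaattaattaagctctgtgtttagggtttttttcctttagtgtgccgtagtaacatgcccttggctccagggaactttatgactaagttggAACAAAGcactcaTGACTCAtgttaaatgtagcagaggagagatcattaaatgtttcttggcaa
LOC728084 region C: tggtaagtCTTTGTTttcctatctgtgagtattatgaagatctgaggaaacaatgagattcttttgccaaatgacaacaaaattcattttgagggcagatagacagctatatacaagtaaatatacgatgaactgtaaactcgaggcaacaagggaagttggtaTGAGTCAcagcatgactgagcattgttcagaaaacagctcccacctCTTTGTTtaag
LOC728084 region D: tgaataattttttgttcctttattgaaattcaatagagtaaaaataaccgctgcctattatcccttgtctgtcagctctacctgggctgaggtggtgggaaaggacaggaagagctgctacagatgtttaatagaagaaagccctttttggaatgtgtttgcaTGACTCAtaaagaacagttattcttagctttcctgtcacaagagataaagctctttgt

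At the protein-coding genes, capitals mark AP-1 matches in the region upstream of DUSP5 (chr10:112174446-112174726), in the region upstream of DUSP6 (chr12:89769578-89769788) and in a short stretch at the inner promoter of SPRED2 (chr2:65593901-65593929). They mark a USF match at the promoter of DUSP7 (chr3:52091281-52091501) and adjoining CArG boxes at the promoter of DUSP5 (chr10:112257471-112257621).
DUSP5 upstream region: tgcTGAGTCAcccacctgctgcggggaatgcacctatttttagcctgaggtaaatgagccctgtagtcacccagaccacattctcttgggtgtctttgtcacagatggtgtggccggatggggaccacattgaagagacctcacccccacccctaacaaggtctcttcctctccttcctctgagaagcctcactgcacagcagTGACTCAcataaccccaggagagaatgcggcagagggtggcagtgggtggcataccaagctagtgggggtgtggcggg
DUSP6 upstream region: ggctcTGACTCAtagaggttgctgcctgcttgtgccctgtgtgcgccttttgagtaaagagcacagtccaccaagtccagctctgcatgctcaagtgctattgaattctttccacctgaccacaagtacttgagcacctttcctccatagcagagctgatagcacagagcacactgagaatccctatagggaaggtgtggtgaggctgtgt
SPRED2 inner promoter: attgtaccggaTGAGTCAtccgagggtta
DUSP7 promoter: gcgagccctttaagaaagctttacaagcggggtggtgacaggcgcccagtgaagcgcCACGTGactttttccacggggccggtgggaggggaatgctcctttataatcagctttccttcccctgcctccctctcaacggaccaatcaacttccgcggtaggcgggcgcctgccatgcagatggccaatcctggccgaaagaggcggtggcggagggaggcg
DUSP5 promoter: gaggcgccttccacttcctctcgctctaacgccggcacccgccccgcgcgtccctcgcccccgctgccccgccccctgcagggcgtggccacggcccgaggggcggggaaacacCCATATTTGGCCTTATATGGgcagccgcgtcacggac

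A peak was called shared when its centre lay under 400 bp from a peak centre of the other replicate. Of the 19 member peaks of replicate 1, 15 (78.9%, exact 95% CI 54.4 to 93.9) had a partner, beside 63.6% of that whole list. In replicate 2, 14 of 36 were shared (38.9%, exact 95% CI 23.1 to 56.5), beside 45.5% of the whole list. Both intervals, which cover counting error only and treat neighbouring peaks of 1 locus as independent, contained the share of all peaks. LOC728084 held 9 of the 15 shared regions, and without it 6 of 10 peaks (60.0%) were shared in replicate 1 and 6 of 14 (42.9%) in replicate 2. The largest centre distance of a shared member pair was 319.5 bp and the smallest of an unshared member peak was 861.5 bp. Narrower limits left fewer shared regions, 11 at 200 bp and 7 at 100 bp. Each shared region carried the same member's name in both lists.

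The 8 protein-coding members differed in how many replicates gave a peak. DUSP5, DUSP6, DUSP7 and SPRED2 each had at least 1 shared region, DUSP4 and SPRED1 had peaks in replicate 2 alone, and SPRY2 and SPRY4 had none assigned. In counts, 4 of 8 had a replicate 1 peak (17.1% of 19097 protein-coding genes), 6 of 8 had a replicate 2 peak (20.5% of those genes) and 4 of 8 had a shared region (11.5%). Since the genes were chosen with earlier results of these data known, these counts describe the list and are not evidence of enrichment. Regions were assigned to the nearest start of any RefGene transcript, coding or not, however far away, and the distances below say how near each one was.

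**Figure D1:**
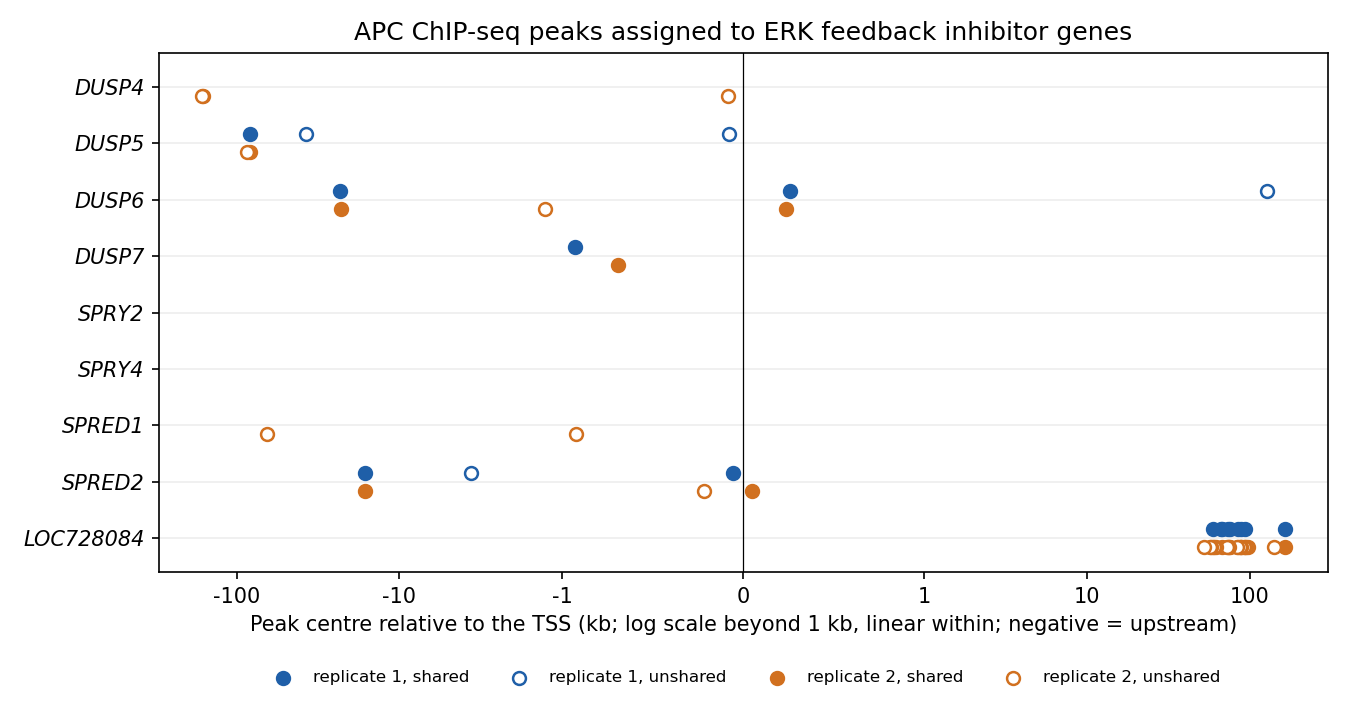
Distance of every peak centre from the transcription start site (TSS) of its assigned gene, in kb, with replicate 1 in blue and replicate 2 in orange, filled where shared and open where not. The axis is linear within 1 kb and logarithmic beyond it. DUSP5, DUSP6, DUSP7 and SPRED2 have filled points in both colours, DUSP4 and SPRED1 have open orange points alone, SPRY2 and SPRY4 have no point, and all 31 peaks of LOC728084 lie at least 51976 bp from its TSS.

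DUSP6, the cytoplasmic phosphatase specific for ERK, had 3 peaks in each replicate, and 2 regions were shared. One lay at the gene's start, centred 261 bp downstream of the TSS in the 5′ UTR of exon 1 (chr12:89746251-89746499). It was 248 bp wide in replicate 1 and 808 bp in replicate 2 (chr12:89745998-89746806), and the centres were 27 bp apart. The narrower interval held 0 AP-1 and 0 TCF7L2 matches, and the wider one held 1 TCF7L2 match, 297 bp from its centre. The other shared region was intergenic, 23047 bp upstream of the TSS (chr12:89769578-89769788), and measured 210 bp in replicate 1 and 440 bp in replicate 2 (chr12:89769342-89769782). This is the upstream sequence shown above, whose AP-1 match lay 97 bp from the replicate 1 centre and 24 bp from the replicate 2 centre. The wider replicate 2 interval held another AP-1 match, 149 bp from its centre. Both DUSP6 regions were thus narrower than the median of all shared regions in replicate 1 (430.5 bp), and only that at the gene's start was wider than the median in replicate 2 (644 bp).

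The remaining DUSP6 peaks were found once each. In replicate 2, a peak of 598 bp lay in a CpG island 1275 bp upstream of the TSS (chr12:89747612-89748210), with its centre 1536 bp from the nearest replicate 1 centre. In replicate 1, a peak of 139 bp lay 126906 bp downstream of the TSS (chr12:89619661-89619800), between DUSP6 and the LOC728084 cluster. This was among the narrowest of replicate 1, at rank 5952 of 6263 by width, and it held 1 AP-1 match.

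DUSP7, the close relative of DUSP6 in the cytoplasm, had 1 peak in each replicate, both at its promoter. The peak measured 614 bp in replicate 1 (chr3:52091084-52091698) and 1193 bp in replicate 2 (chr3:52090558-52091751), with centres 930 and 693 bp upstream of the TSS and 236.5 bp apart. By width these ranked 933 of 6263 and 357 of 8393. Unlike the AP-1 regions of DUSP5 and DUSP6, the replicate 1 interval held 0 AP-1 matches and 1 match each of USF, SP1 and TCF7L2. The same USF match lay 50.5 bp from the replicate 1 centre and 186 bp from the replicate 2 centre. Because the centres were over 200 bp apart, this region was not counted as shared with a limit of 100 or 200 bp. The closest other peaks were shared regions at the starts of the ribosomal protein gene RPL29, 60.3 kb away, and of ACY1, which encodes an aminoacylase, 72.8 kb away, and a replicate 2 peak at the promoter of POC1A, 98.2 kb away.

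DUSP5, a nuclear phosphatase specific for ERK, had 3 peaks in replicate 1 and 2 in replicate 2, of which 1 region was shared. The shared region was intergenic, 83039 bp upstream of the TSS (chr10:112174323-112174850), and it measured 527 bp in replicate 1 and 1230 bp in replicate 2 (chr10:112173910-112175140). The centres were 61.5 bp apart, and the replicate 2 peak ranked 310 of 8393 by width. AP-1 matched at 2 places in the replicate 1 interval, 65.5 and 134.5 bp from the centre, and at 3 places in the wider replicate 2 interval. A replicate 2 peak of 1645 bp, ranked 122 by width, lay 3911 bp from the replicate 1 centre of that region (chr10:112169853-112171498) and had no replicate 1 partner. It was the widest member peak outside LOC728084, and it held 1 AP-1 match and 1 CArG box.

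The promoter of DUSP5 had a peak in replicate 1 alone. It was 344 bp wide (chr10:112257374-112257718) and centred 79 bp before the TSS, and the nearest replicate 2 centre was 69755 bp away. CArG boxes adjoined each other 43.5 and 53.5 bp from its centre, as in the promoter sequence above, beside 1 SP1 and 1 EGR1 match (GCGGGGGCG or GCGTGGGCG). Another peak of replicate 1 alone, 436 bp wide, lay 37272 bp upstream of the TSS (chr10:112220135-112220571) and held 1 AP-1 match 11 bp from its centre. The only shared region of DUSP5 thus lay far upstream, and its promoter peak was found once. Beyond it lay a shared region assigned to SMNDC1, a splicing factor gene, 101.9 kb from the DUSP5 TSS (chr10:112155481-112155992, 511 bp in replicate 1 and 1032 bp in replicate 2). On the other side the nearest shared regions were at the promoter of the cohesin gene SMC3, 69.4 and 69.8 kb from the DUSP5 TSS.

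SPRED2, an inhibitor of RAF activation by RAS, had 3 peaks in each replicate and 2 shared regions, both inside the gene. One lay at the inner promoter, which starts the shorter transcript, centred 54 bp upstream of that TSS (chr2:65593802-65594169). It measured 367 bp in replicate 1 and 508 bp in replicate 2 (chr2:65593628-65594136), with 1 AP-1 match, shown above, inside both intervals. The other lay in intron 1 of the longer transcript, 16187 bp upstream of the inner TSS (chr2:65609904-65610333), and measured 429 and 585 bp (chr2:65609884-65610469 in replicate 2). It held 0 AP-1 and 0 TCF7L2 matches in both replicates.

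At the outer promoter of SPRED2, which starts the longer transcript, the replicates gave different peaks. Replicate 2 had a peak of 439 bp centred 219 bp upstream of that TSS (chr2:65659656-65660095), and replicate 1 had a peak of 454 bp in a CpG island 3658 bp upstream (chr2:65663087-65663541). Their centres were 3438.5 bp apart, so neither was shared. All peaks of SPRED2 lay no more than 16245 bp from a TSS of the gene.

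SPRED1, the paralog of SPRED2, had 0 peaks in replicate 1 and 2 in replicate 2. The wider, at 553 bp, lay at the promoter, centred 922 bp upstream (chr15:38543854-38544407). The other was 156 bp wide, at rank 8139 of 8393, and lay in a LINE element 65073 bp upstream (chr15:38479901-38480057). Neither held an AP-1 or TCF7L2 match, and the replicate 1 centre nearest to the promoter peak was 202.1 kb away.

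SPRY2 had no peak assigned, and the centre nearest to its TSS was 1493.7 kb away in replicate 1 and 1680.5 kb away in replicate 2. SPRY4 also had no peak under its own name, but the antisense gene that starts beside it, named LOC101926941 in the lists and SPRY4-AS1 in RefSeq, had 4 peaks in each replicate. A replicate 1 peak of 325 bp that the annotation placed in the promoter of a SPRY4 transcript lay 749.5 bp from the SPRY4 TSS (chr5:141705173-141705498), and its nearest replicate 2 centre was 31473 bp away. Farther into the antisense gene, 2 regions were shared. The first lay 32.1 kb from the SPRY4 TSS (chr5:141736279-141737015) and measured 736 bp in replicate 1 and 1173 bp in replicate 2. The second lay 35.2 kb away (chr5:141739640-141739966) and measured 326 and 1332 bp. SPRY4 therefore lacked peaks by name and not by position: when each region went to the closest protein-coding start in GENCODE, SPRY4 had 2 shared regions and SPRY2 still had 0.

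DUSP4, the other nuclear phosphatase of the list, had 0 peaks in replicate 1 and 3 in replicate 2. The promoter peak measured 476 bp, and its centre lay 83 bp upstream of the TSS on chromosome 8 (29206167 to 29206643). The others, of 570 and 505 bp, lay close together 161018 and 162689 bp upstream and held 1 AP-1 match each, 22 and 0.5 bp from their centres. The 505 bp peak also held 1 TCF7L2 match, as did the promoter peak. At the promoter the nearest replicate 1 centre was 206.6 kb away. Both members seen in replicate 2 alone, DUSP4 and SPRED1, thus had a peak at the promoter and at least 1 farther upstream. At ranks 4968 and 3854 of 8393, neither promoter peak was among the widest of that list. Replicate 2 gave more peaks in all, and whether depth contributed was not tested.

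LOC728084 was the name of 9 peaks in replicate 1 and 22 in replicate 2, which is 47.4% and 61.1% of the member peaks. RefSeq gives this gene as LINC02458, a long non-coding RNA whose function is not described here. Every replicate 1 peak had a partner, as had 8 of the 22 in replicate 2. With 9 shared regions LOC728084 was 1 of 19 genes with at least that many, or 0.694% of the 2736 genes with any shared region. No other member had more than 2. All of its peaks were annotated as intergenic, beyond the end of the transcript, at 51976 to 165341 bp from the TSS, and none lay in a satellite repeat.

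Most of the LOC728084 peaks were packed closely. In replicate 1, 8 of the 9 fell in a stretch of 35.2 kb (chr12:89319542-89354782), covered 13.5% of it and had a median of 5537 bp between neighbouring centres. In replicate 2, 20 of the 22 fell in 45.8 kb (chr12:89315777-89361593), covered 36.0% of it and had a median spacing of 1627 bp. The extra replicate 2 peaks filled gaps between the replicate 1 peaks more than they extended the stretch, and 14 of the 22 had no partner. Beyond the stretch, a shared region lay 165341 bp from the TSS in a LINE element (302 bp in replicate 1 and 494 bp in replicate 2), and a replicate 2 peak of 384 bp lay 141242 bp from it.

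**Figure D2:**
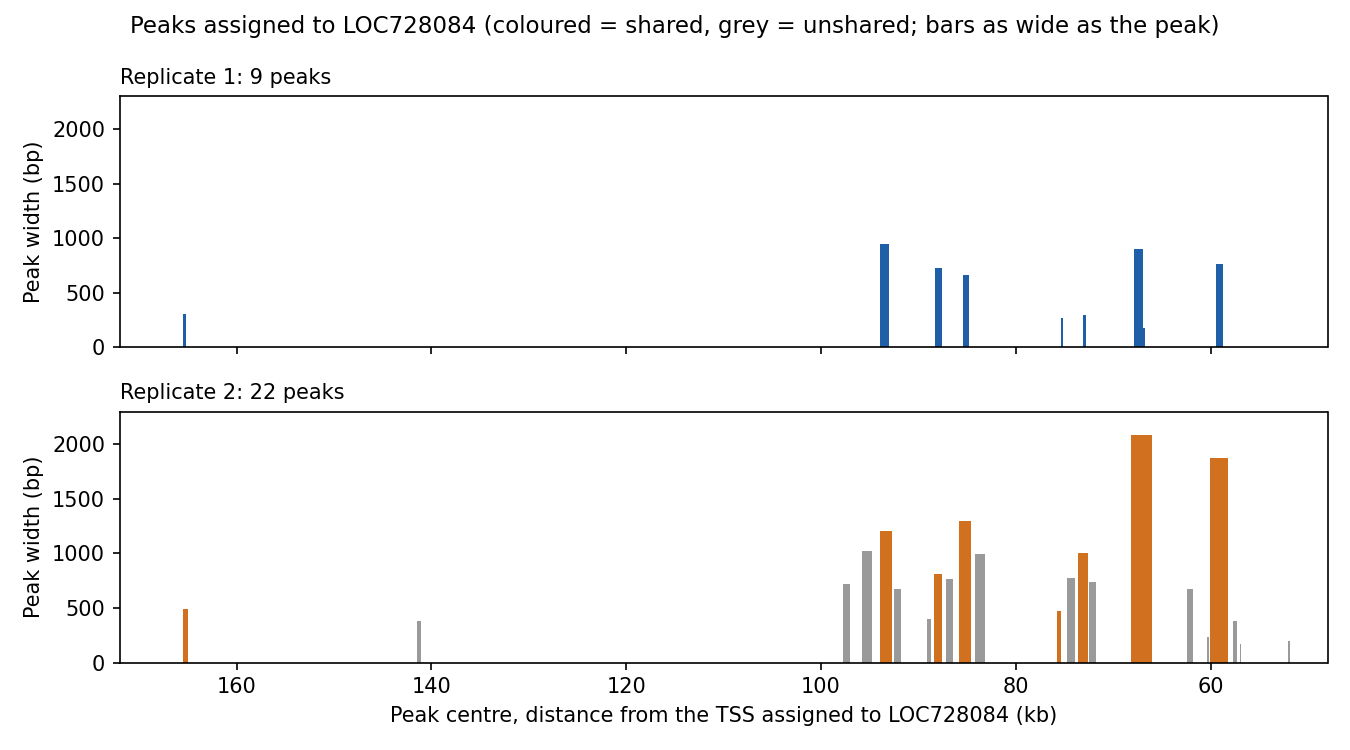
Width of each peak assigned to LOC728084, in bp, against the distance of its centre from the TSS, in kb, with replicate 1 above and replicate 2 below. Coloured bars are shared and grey bars are not. The 9 replicate 1 peaks all have a replicate 2 peak opposite, and the 2 widest bars of replicate 2, of 2088 and 1874 bp, stand over replicate 1 peaks of 903, 182 and 769 bp.

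The widest LOC728084 peak of replicate 1, region A above, measured 947 bp (chr12:89319542-89320489), ranked 191 of 6263, and was 1205 bp wide in replicate 2 (chr12:89319558-89320763). The region with the second-widest replicate 1 peak, at 903 bp (chr12:89345603-89346506), fell in the widest member peak of all, the 2088 bp peak of replicate 2 (chr12:89345330-89347418), which ranked 54 of 8393. An adjoining replicate 1 peak of 182 bp (chr12:89346509-89346691) fell in the same replicate 2 peak, so that the 15 shared regions had 14 partners. Region D measured 769 bp in replicate 1 (chr12:89354013-89354782) and 1874 bp in replicate 2 (chr12:89353411-89355285), the latter at rank 81. Region B measured 664 and 1299 bp, and region C 274 and 472 bp. In replicate 1, 4 of the 9 were among the widest 10% of that list, and in replicate 2, 7 of the 22 were, so the cluster held both wide and narrow peaks.

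The position of the cluster did not bear out a place near DUSP6. Its peaks lay 390.6 to 496.8 kb from the DUSP6 TSS in replicate 1 and 383.5 to 496.7 kb in replicate 2. On the other side is KITLG, which encodes the ligand of the KIT receptor tyrosine kinase, and its TSS was 273.5 to 379.8 kb away in replicate 1 and 273.6 to 386.9 kb in replicate 2. All 9 replicate 1 peaks and 21 of 22 replicate 2 peaks were nearer KITLG than DUSP6. Between the stretch and DUSP6, replicate 1 had 1 peak and replicate 2 had 0. KITLG itself had 6 peaks in replicate 2, of 222 to 603 bp, and 0 in replicate 1. The lists hold no contact data, and which gene these regions act on, if any, was not tested.

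The shared regions of members lay farther from a TSS than shared regions in general, and this came from LOC728084. Of the 15, 3 (20.0%) lay within 5 kb and the same 3 within 1 kb, at DUSP6, DUSP7 and SPRED2, beside 44.4% and 37.0% of all 3984 shared regions. Without LOC728084 the count within 5 kb was 3 of 6 (50.0%). The regions were also poorer in G and C, with a median of 38.5% beside 52.2%, and again the median without LOC728084, 52.8%, was close to that of all shared regions. No test was made of these differences, since neighbouring peaks of 1 locus are not independent.

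The widths of member regions differed between LOC728084 and the protein-coding members. Over all 15, the median was 429 bp in replicate 1 (430.5 bp over all shared regions) and 908 bp over the 14 partners in replicate 2 (644 bp over all). All 15 were wider in replicate 2, as were 90.4% of all shared regions, and the ratio of replicate 2 to replicate 1 had a median of 1.96, beside 1.51. The smallest ratio was 1.1, in a region of LOC728084 of 732 and 808 bp, and the largest was 11.5, for the 182 bp peak that fell in the widest replicate 2 peak. Regions of LOC728084 had medians of 664 bp in replicate 1 and 1106 bp in replicate 2, and the 6 regions of protein-coding members had medians of 398 and 696.5 bp, near those of all shared regions. For these 6, widths ran from 210 to 614 bp in replicate 1 and from 440 to 1230 bp in replicate 2. Unshared member peaks had medians of 390 bp (n = 4) and 561.5 bp (n = 22), narrower than shared ones as in the whole lists, where unshared peaks had medians of 236 and 430 bp. Width depends on depth and threshold as well as on enrichment, and their part in the difference between replicates was not tested.

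**Figure D3:**
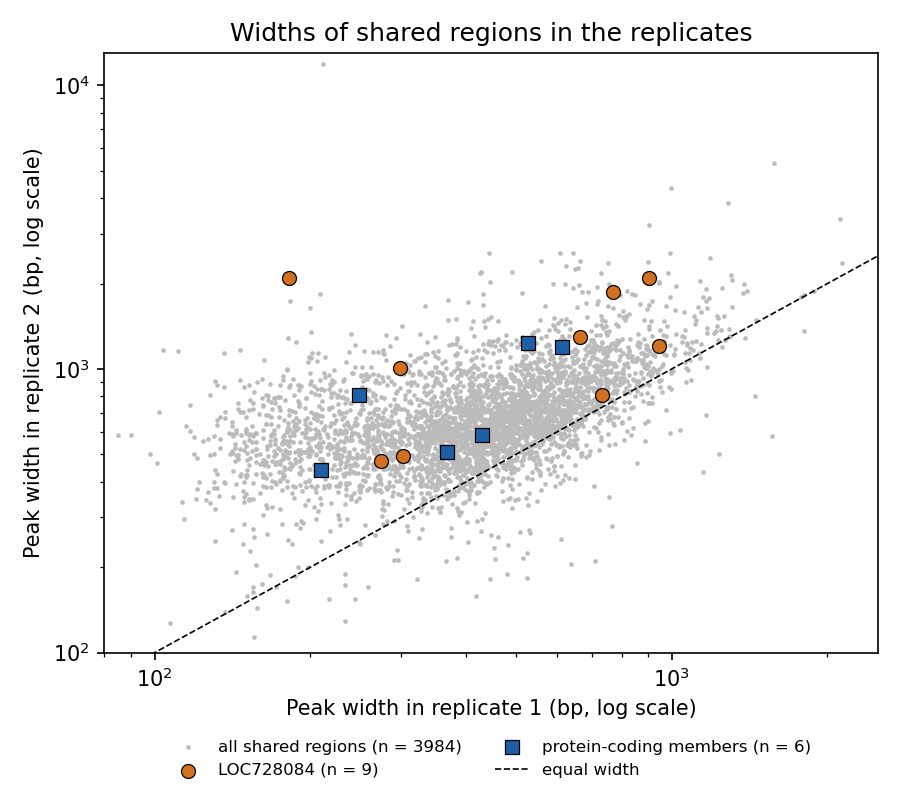
Width of each shared region in replicate 1 (horizontal) and replicate 2 (vertical), in bp on log scales, with all 3984 shared regions in grey, the 9 of LOC728084 as orange circles and the 6 of protein-coding members as blue squares. All 15 member points lie above the dashed line of equal width.

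AP-1 matches were found in 7 of the 15 shared regions (46.7%, exact 95% CI 21.3 to 73.4), beside 32.9% of all shared regions. These were the upstream regions of DUSP5 and DUSP6, the inner promoter of SPRED2 and regions A to D of LOC728084. The 8 matches lay 29.5 to 134.5 bp from the replicate 1 peak centre, and 7 of them within 100 bp. The same share over all shared regions is not given here. A narrow peak, such as that of 210 bp upstream of DUSP6, can hold no match far from its centre. Those of the 8 matches inside the replicate 2 intervals lay 24 to 174.5 bp from the replicate 2 centres. AP-1 was absent from the region at the start of DUSP6, the promoter of DUSP7 and the intron of SPRED2. The interval of the members contained the share of all regions, so a difference was not detectable with 15 regions. In replicate 2, 10 of all 36 member peaks, shared or not, had a match (27.8%), beside 32.1% of that whole list. For the LOC728084 peaks of replicate 2 the count was 4 of 22.

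TCF7L2 matches were unevenly spread among the members. They were found in 8 of 15 regions (53.3%, exact 95% CI 26.6 to 78.7), beside 33.4% of all shared regions, but 7 of these 8 belonged to LOC728084 (7 of 9, 77.8%, exact 95% CI 40.0 to 97.2). Among the protein-coding members 1 of 6 had a match (16.7%) in the replicate 1 intervals, that at DUSP7. The wider replicate 2 interval at the start of DUSP6 held 1 as well, so the low share depended on the interval searched. AP-1 and TCF7L2 matches occurred together in 4 regions, A to D of LOC728084, and in 0 of the 6 regions of protein-coding members, beside 16.4% of all shared regions. This was so in the replicate 1 intervals. Outside the shared regions, a replicate 2 peak of DUSP4 (505 bp wide) held 1 match of each. The replicate 2 peak of region C left out its AP-1 match, so that AP-1 was found in 6 of 15 (40.0%) when replicate 2 intervals were searched. Over all replicate 2 member peaks, shared or not, TCF7L2 matched in 16 of 36 (44.4%), beside 36.8% of that whole list. Neighbouring regions of 1 locus are not independent, so the intervals for LOC728084 and for all 15 regions are too narrow. The TCF7L2 motif is short and rich in A and T, as is the DNA of the cluster. The searched intervals of LOC728084 were also wider, with a median of 664 bp beside 430.5 bp over all shared regions. The part of base composition and of width in these counts was not tested.

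The other motifs had few matches in member regions, at counts that 15 regions cannot tell from those of all shared regions. In the replicate 1 intervals, SP1 and USF matched in 1 of 15 regions each, both at DUSP7. Without LOC728084 this was 1 of 6 (16.7%), beside 12.6% and 20.2% of all shared regions. NRF1 (2.31% of all shared regions), EGR1 (4.37%), the CArG box (2.13%), the ETS motif (ACCGGAAGT and its variants with C first or last, 5.62%) and the cyclic AMP response element TGACGTCA (2.38%) matched in 0 of 15, which allows a share of up to 21.8% by the exact interval. The CArG boxes of DUSP5 lay in its unshared promoter peak and so outside this count. The wider replicate 2 intervals of shared regions also held a USF match upstream of DUSP5 and an EGR1 match in the intron of SPRED2. Among 78 matches in all member peaks, 2 overlapped another motif: an AP-1 and a USF match in an unshared replicate 2 peak of LOC728084 (chr12:89350995-89351666). A match says that the letters are present, not that the factor was bound.

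**Figure D4:**
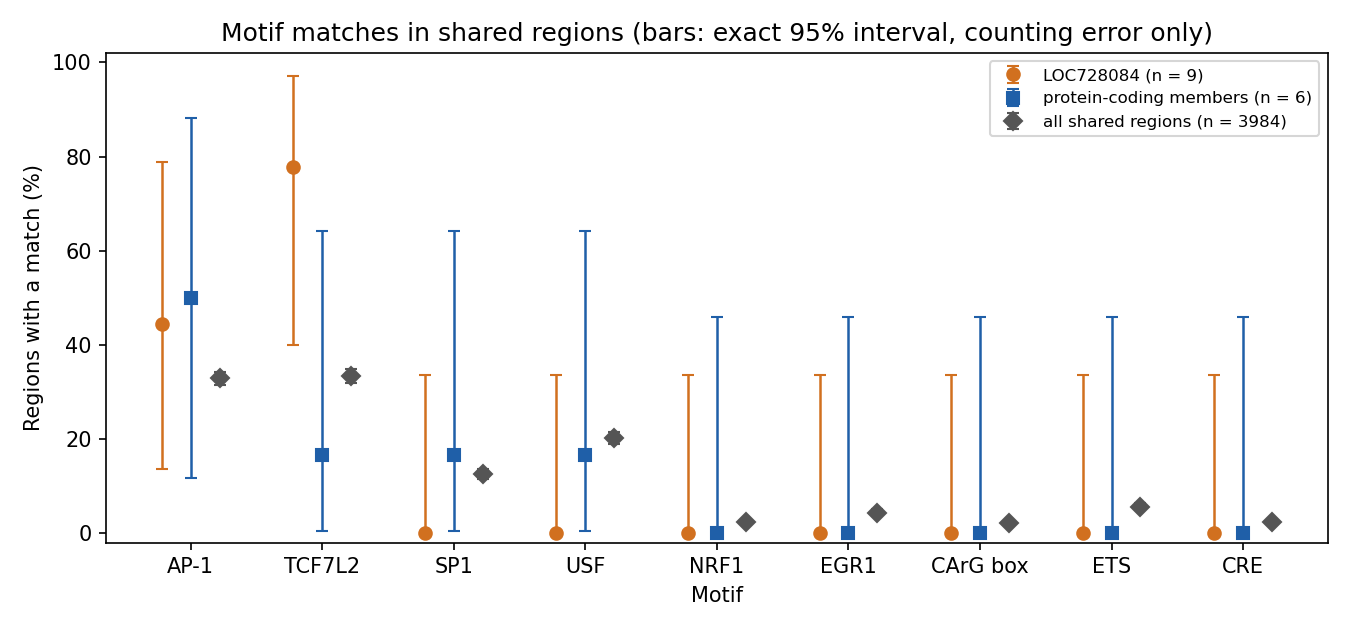
Share of shared regions with a match of each motif, in %, for LOC728084 (orange circles, n = 9), protein-coding members (blue squares, n = 6) and all shared regions (grey diamonds, n = 3984), with exact 95% intervals that treat regions as independent, although those of LOC728084 lie in 1 locus. TCF7L2 stands at 77.8% for LOC728084, 16.7% for protein-coding members and 33.4% for all. The AP-1 shares of 44.4%, 50.0% and 32.9% differ less than the intervals are wide. Motifs were searched in the replicate 1 intervals.

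Other genes of the pathway were counted from lists of 4 roles, beside the 11.5% of protein-coding genes with a shared region. Of 18 other genes listed as inhibitors of this or related signaling, whether or not ERK induces them, 3 (16.7%) had one. ERRFI1, which encodes an inhibitor of the EGF receptor, had 13, at 76 to 141077 bp from the TSS. Of these, 1 lay within 5 kb. DUSP2, a nuclear phosphatase gene, had 1 with its centre 71 bp from the TSS, and SPRY1 had 1 at 79542 bp. The DUSP2 region was 434 bp wide in replicate 1 and 474 bp in replicate 2, and that of SPRY1 189 and 518 bp. SPRY3, named after its values were seen, had 49 peaks in replicate 1, 1 in replicate 2 and 0 shared regions, so that SPRY1 was the Sprouty gene with a shared region under its own name.

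Of 23 genes of the RAS-ERK cascade itself, 1 (4.35%) had a shared region: KSR2, a scaffold for RAF, MEK and ERK. It had 3, at 16954 to 281010 bp from the TSS. Among 12 EGF family receptors and ligands, 4 (33.3%) had one, all over 5 kb from the TSS. The ligand gene AREG was named for 12, at 69546 to 112768 bp, and the receptor gene EGFR for 2, at 55114 to 67579 bp. The ligand genes EPGN and EREG were named for 1 each, at 39952 and 9557 bp. Of 21 transcription factor and immediate early genes that act downstream of ERK, 8 (38.1%) had one. IER3 had 4, at 105 to 37488 bp from the TSS, and JUNB had 3, at 178 to 2426 bp. ETV1 and IER2 had 2 each, at 66189 to 77598 bp and 4540 to 17131 bp. These lists, like the members, were chosen with earlier results known, and no order among them was tested.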

How the data were processed

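Single-end reads of 50 bases were aligned by the authors with BWA (build hg19), and MACS2 called peaks per ChIP replicate against the matching input, at a score threshold tuned to retain AXIN2, DKK1 and MYC. Versions are not given in the sources used here. In both lists, the deposited peak score equalled the width plus 2 in all 6263 and 8393 rows and was read as a width. Width was end minus start, and the distance of a peak from its assigned gene was that of the authors. Distances in kb to DUSP5, DUSP7, SPRY2, SPRY4, DUSP4, DUSP6 and KITLG from peaks under other names used the GENCODE TSS. The centre distances of the authors' overlap table were checked for the 19 member rows and differed by at most 0.5 bp. Motifs were searched in the hg19 interval of replicate 1 with pysam 0.24.0, and intervals were Clopper-Pearson (scipy 1.17.1). Protein-coding genes came from GENCODE 44 on GRCh37, and 4916 of 5028 (97.8%) coding names in the lists matched. Names that had become dates (9 rows of replicate 2) were restored. Scripts were tested on simulated data.

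The members and lists were chosen with earlier results of these data known. All 9 members were described, with the 3 genes of most shared regions in each other list and genes with peaks within 100 kb of a member TSS or between a member peak and its TSS. KITLG, LINC00589, SPRY3, IER2 and EREG were named after their values were seen.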

Additional observations from a re-analysis of the deposited data

How the results depend on the processing

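The 15 shared regions of 5 genes were 15 with a centre distance limit of 1000 bp, an overlap of at least 1 bp or no satellite peaks. They were 11 with a limit of 200 bp, 7 with 100 bp, 8 among the wider 50% of each list, 14 within 100 kb of the TSS and 3, in 3 genes, within 10 kb. Without LOC728084, an alternative chosen after seeing the data, 6 remained and 50.0% lay within 5 kb of the TSS. With the nearest protein-coding TSS of GENCODE, 10 regions fell to 6 members, 2 each of them to DUSP4 and SPRY4, and 0 to LOC728084, all 9 of whose replicate 1 peaks were nearest to KITLG. Leaving out either replicate, so that every peak of the other counted, gave 19 to 36 regions and 5 to 7 genes. Median widths were then 429 bp in replicate 1 and 634.5 bp in replicate 2. Within 5 kb lay 26.3% in replicate 1 and 19.4% in replicate 2, beside 45.2% and 37.7% of all peaks. AP-1 matched in 47.4% of member peaks in replicate 1, beside 25.2% of all peaks. In replicate 2 it matched in 27.8%, beside 32.1%, so the direction differed between replicates. Of 62 values recomputed under an alternative, 55 stayed within 1.5 times the count, the exact interval or the SD between replicates, and 7 moved beyond it. These bounds were wide, since the intervals came from 15 regions and the SD from replicate medians of 429 and 908 bp. Medians of 698 and 1218 bp among the wider 50% thus counted as staying. Leaving out satellite peaks could change no value, because no member peak lay in a satellite. Of 108 counts for single genes, 21 moved by over 1.5 times, among them DUSP6, which had 0 shared regions among the wider 50%, and DUSP7, which had 0 with a limit of 200 bp. No paired analysis was possible because the input libraries had no values in the files used and each replicate number held 1 peak list. Depth was unknown, so an absent peak, as at SPRY2, may lie below the calling threshold.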

Other observations

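LINC00589, a non-coding gene name on the far side of the DUSP4 upstream peaks, had 3 peaks in replicate 1 and 5 in replicate 2. Of these, 2 were shared. The wider in replicate 1 lay on chromosome 8 (29412693 to 29413268), 204.8 kb from the DUSP4 TSS, with 575 bp in replicate 1 and 783 bp in replicate 2. The other (29522621 to 29523120) lay 314.7 kb away and measured 499 and 1000 bp. They held 1 and 2 AP-1 matches. DUSP4 was the nearest protein-coding TSS of both in GENCODE, although no replicate 1 peak carried its name.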
